A study of Mus musculus with 7 samples.

Results

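The genes of the matrix metalloproteinases, the disintegrin proteases and their tissue inhibitors were examined in 3T3-L1 cells exposed to exosomes from mouse adipose tissue. Members were all genes of the deposited count table whose symbol was Mmp, Adam, Adamts or Timp followed by a number, which gave 79 of 34745 genes: 23 Mmp, 33 Adam, 19 Adamts and 4 Timp. Of these, 39 reached 1 CPM (the depth-normalised count, here with TMM scaling between libraries) in at least 1 library and 33 reached it in all 7.

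The RNA-seq series asked how exosomes from adipose tissue (AT-Exos) change gene expression in adipocytes. 3T3-L1 is a mouse embryonic fibroblast line, labelled WT in all libraries, that can be differentiated into fat cells, and cells on days 8 to 10 of differentiation were used. They received for 48 h exosomes from visceral white (vWAT), inguinal white (iWAT) or brown adipose tissue (BAT) of mice on a high-fat diet (HFD, obese) or a low-fat diet (LFD, lean), which gave the groups HFD-vWAT-Exos, LFD-vWAT-Exos, HFD-iWAT-Exos, LFD-iWAT-Exos, HFD-BAT-Exos and LFD-BAT-Exos. The Control received no exosomes and is labelled as untreated, whereas legends in the study's supplement name PBS buffer for control cells, so whether it received a vehicle is unsettled. All cells shared the same line and the same differentiation medium with insulin, IBMX and dexamethasone. The exosomes were those released by minced tissue in culture, from wild-type C57BL/6 donors of matched age, and how many mice stood behind each preparation is not given in the sources used here. Each group had 1 library, so no spread between cultures was measured.

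Matrix metalloproteinases are zinc-dependent proteases, most of them secreted as inactive zymogens, that cleave collagens, proteoglycans and other proteins of the extracellular matrix. TIMP proteins bind and block their catalytic site, and Timp2 also takes part, together with the membrane-bound Mmp14, in the activation of Mmp2 at the cell surface. ADAMTS proteases are secreted and cleave proteoglycans and procollagens, whereas many ADAM proteases sit in the membrane and shed the outer part of other membrane proteins. In adipose tissue these enzymes are known for remodelling the matrix around fat cells as they differentiate and enlarge.

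The libraries held 13493560 to 24345291 counts, fewest in LFD-vWAT-Exos. LFD-vWAT-Exos stood apart from the other 6 libraries: mitochondrial genes took 1.10% of its counts, against 2.19 to 2.60% elsewhere, and the members took 0.696%, against 1.18 to 1.60%. Of 12 adipocyte markers, 8 (Adipoq, Cebpa, Cfd, Cidec, Lep, Plin1, Retn and Slc2a4) stayed below 1 CPM in every library, Control included, whereas all 7 fibroblast and preadipocyte markers were above it, so most defining markers of the labelled, fully differentiated adipocytes were near absent. The other 4 adipocyte markers were expressed. Lpl (217 CPM in LFD-vWAT-Exos against 1031 CPM in Control) and Cd36 (0.858 against 1.98 CPM) were lower in LFD-vWAT-Exos, whereas Pparg was at 21.5 against 12.9 CPM and Fabp4 at 75.1 against 78.4 CPM. Summed over their list, the fibroblast markers reached 15849 CPM in LFD-vWAT-Exos against 31462 to 38603 CPM in the other libraries. Against Control, 4 of the 7 (Col1a1, Col1a2, Thy1 and Dlk1) were lower and apart by the rule given below, where 17.3% of all genes were. The others were not apart: Pdgfra was at 1154 against 1201 CPM, Pdgfrb at 288 against 399 CPM and Fn1 at 8480 against 13308 CPM. In bulk RNA, fewer cells of a type and less RNA per cell cannot be told apart.

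The 39 members above 1 CPM were 11 Mmp (Mmp2, Mmp3, Mmp9, Mmp10, Mmp11, Mmp12, Mmp13, Mmp14, Mmp19, Mmp23 and Mmp28), 12 Adamts (Adamts1, Adamts2, Adamts4, Adamts5, Adamts6, Adamts7, Adamts9, Adamts10, Adamts12, Adamts14, Adamts15 and Adamts16), 12 Adam (Adam1a, Adam8, Adam9, Adam10, Adam11, Adam12, Adam15, Adam17, Adam19, Adam23, Adam32 and Adam33) and all 4 Timp. Another 27 members had counts without reaching 1 CPM in any library, at most 15 counts in one library, and 13 had none in all 7 libraries. A floor of 3 counts corresponded to 0.122 to 0.234 CPM, so the 13 genes were not detectable at this depth rather than shown to be absent. Expression was very unequal: on the length-normalised FPKM scale the median of Mmp2 over the 7 libraries was 1899 FPKM, and only 6 genes of the whole table had a higher median. Timp2 followed with a median of 545 FPKM, Mmp14 with 349.9 FPKM and Adamts1 with 255 FPKM, while 10 of the 39 had a median below 1 FPKM.

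**Figure D1:**
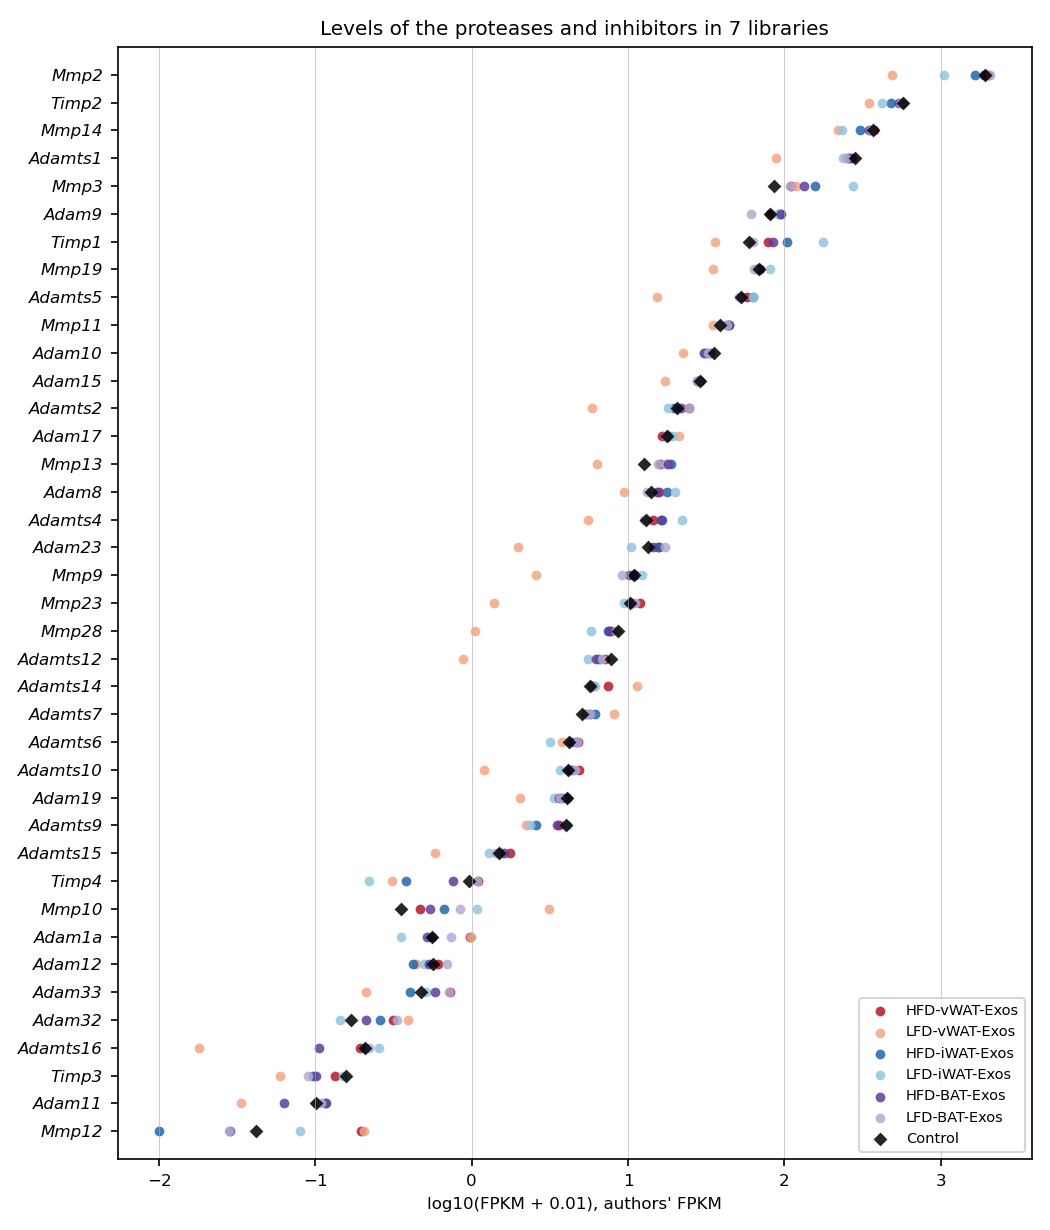
Level of each of the 39 members above 1 CPM in the 7 libraries, on a log10 axis of the authors' FPKM plus 0.01, with 1 point per library and genes ordered by median FPKM. Mmp2 lies at the top with a median of 1899 FPKM, and the LFD-vWAT-Exos point is the lowest of the 7 in CPM for 25 of the 39 genes.

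The most abundant protease was the gelatinase Mmp2, which degrades denatured collagen and basement membrane collagen. Mmp2 had 6147 CPM with HFD-vWAT-Exos, 1554 with LFD-vWAT-Exos, 4943 with HFD-iWAT-Exos, 3141 with LFD-iWAT-Exos, 5762 with HFD-BAT-Exos, 6245 with LFD-BAT-Exos and 5811 in Control. Thus 2 libraries were low, LFD-vWAT-Exos and LFD-iWAT-Exos, and the other 5 lay between 4943 and 6245 CPM. The level was 3.74-fold lower in LFD-vWAT-Exos than in Control (95% counting interval 3.68 to 3.79). In LFD-iWAT-Exos the ratio to Control was 0.540 (0.536 to 0.545), and HFD-iWAT-Exos exceeded LFD-iWAT-Exos by a ratio of 1.57 (1.56 to 1.59). These intervals are exact 95% intervals for the ratio of 2 counts after scaling, and they cover counting error only, because PCR copies were not marked and each group had 1 library. The second gelatinase, Mmp9, known from inflammatory cells, had 42.2 CPM with HFD-vWAT-Exos, 10.7 with LFD-vWAT-Exos, 43.3 with HFD-iWAT-Exos, 48.0 with LFD-iWAT-Exos, 39.9 with HFD-BAT-Exos, 35.6 with LFD-BAT-Exos and 42.4 in Control. It was far less abundant, with a median of 10.7 FPKM, and only the LFD-vWAT-Exos library was low, 3.97-fold below Control (3.31 to 4.78).

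Mmp14, the membrane-type protease that activates Mmp2, had 2169 CPM with HFD-vWAT-Exos, 1347 with LFD-vWAT-Exos, 1751 with HFD-iWAT-Exos, 1331 with LFD-iWAT-Exos, 2017 with HFD-BAT-Exos, 2043 with LFD-BAT-Exos and 2117 in Control. LFD-vWAT-Exos and LFD-iWAT-Exos were again the lowest, at ratios to Control of 0.636 (0.625 to 0.647) and 0.629 (0.620 to 0.638). The other 5 membrane-type genes (Mmp15, Mmp16, Mmp17, Mmp24 and Mmp25) did not reach 1 CPM. Among the remaining metalloproteinases, Mmp19, which cleaves basement membrane proteins, had 240.0 CPM with HFD-vWAT-Exos, 127 with LFD-vWAT-Exos, 229.5 with HFD-iWAT-Exos, 272 with LFD-iWAT-Exos, 227 with HFD-BAT-Exos, 215 with LFD-BAT-Exos and 232 in Control. Part of the exon sequence of Mmp19 (28.3%) is shared with neighbouring genes, so its counts are less certain. Mmp23, anchored in the membrane, had 42.4 CPM with HFD-vWAT-Exos, 5.15 with LFD-vWAT-Exos, 36.7 with HFD-iWAT-Exos, 33.0 with LFD-iWAT-Exos, 37.5 with HFD-BAT-Exos, 38.7 with LFD-BAT-Exos and 36.0 in Control. Mmp28, also called epilysin, had 46.9 CPM with HFD-vWAT-Exos, 6.56 with LFD-vWAT-Exos, 44.3 with HFD-iWAT-Exos, 34.5 with LFD-iWAT-Exos, 45.4 with HFD-BAT-Exos, 49.3 with LFD-BAT-Exos and 51.4 in Control. For both, LFD-vWAT-Exos was far below the other 6 libraries, 6.99-fold (5.44 to 9.13) below Control for Mmp23 and 7.83-fold (6.27 to 9.90) for Mmp28, whose next lowest library was LFD-iWAT-Exos at a ratio of 0.671 (0.613 to 0.734).

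All 4 inhibitor genes were detected, at very different levels. Timp2, the most abundant, had 2326 CPM with HFD-vWAT-Exos, 1503 with LFD-vWAT-Exos, 1957 with HFD-iWAT-Exos, 1714 with LFD-iWAT-Exos, 2228 with HFD-BAT-Exos, 2253 with LFD-BAT-Exos and 2333 in Control. It varied little beyond the lower LFD-vWAT-Exos and LFD-iWAT-Exos values, whose ratios to Control were 0.644 (0.633 to 0.655) and 0.735 (0.725 to 0.744). Timp1, a secreted inhibitor known to be induced by inflammatory cytokines, had 109 CPM with HFD-vWAT-Exos, 52.9 with LFD-vWAT-Exos, 142 with HFD-iWAT-Exos, 243 with LFD-iWAT-Exos, 117 with HFD-BAT-Exos, 86.4 with LFD-BAT-Exos and 82.1 in Control. LFD-iWAT-Exos was thus the highest library and LFD-vWAT-Exos the lowest. The LFD-iWAT-Exos level was 2.96-fold that of Control (2.81 to 3.12), and the ratios to Control in HFD-iWAT-Exos, HFD-BAT-Exos and HFD-vWAT-Exos were 1.73 (1.63 to 1.84), 1.43 (1.34 to 1.52) and 1.33 (1.25 to 1.42).

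The 2 scarce inhibitors had other patterns. Timp4, which is known from heart and adipose tissue, had 6.80 CPM with HFD-vWAT-Exos, 1.95 with LFD-vWAT-Exos, 2.27 with HFD-iWAT-Exos, 1.30 with LFD-iWAT-Exos, 4.65 with HFD-BAT-Exos, 6.54 with LFD-BAT-Exos and 5.86 in Control. Both iWAT libraries and LFD-vWAT-Exos were low, and the HFD-vWAT-Exos and both BAT libraries had ratio intervals that included equal levels with Control. Against Control, Timp4 was 4.52-fold lower in LFD-iWAT-Exos (3.05 to 6.88), 3.00-fold lower in LFD-vWAT-Exos (1.95 to 4.81) and 2.58-fold lower in HFD-iWAT-Exos (1.80 to 3.76). These ratios rest on 32, 25 and 41 counts, against 130 counts in Control. Timp3, the inhibitor that binds to the matrix and also blocks Adam17, had 1.12 CPM with HFD-vWAT-Exos, 0.468 with LFD-vWAT-Exos, 0.776 with HFD-iWAT-Exos, 1.26 with LFD-iWAT-Exos, 0.820 with HFD-BAT-Exos, 0.707 with LFD-BAT-Exos and 1.31 in Control. At 6 to 31 counts a library, only the LFD-vWAT-Exos value, 2.79-fold below Control (1.14 to 8.23), had an interval that excluded equal levels. Timp1, Timp3 and Timp4 lie within the synapsin genes Syn1, Syn3 and Syn2 on the other strand, and 21.3% of the exon bases of Timp3 overlap Syn3. Whether strand was used in counting is not given in the sources used here. The synapsin genes were at or below 1.39 CPM in every library, which is on the scale of Timp3 and of the low Timp4 values. Syn2 was at 1.39 CPM in HFD-iWAT-Exos, 0.608 in LFD-iWAT-Exos and 0.468 in LFD-vWAT-Exos, and 1.53% of the Timp4 exon bases overlap it. The part of synapsin reads in the Timp counts was not tested.

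Sums over the families show how far Mmp2 set the balance of proteases to inhibitors at the RNA level. The summed Mmp FPKM divided by the summed Timp FPKM was 4.12 with HFD-vWAT-Exos, 2.36 with LFD-vWAT-Exos, 3.86 with HFD-iWAT-Exos, 2.86 with LFD-iWAT-Exos, 4.03 with HFD-BAT-Exos, 4.34 with LFD-BAT-Exos and 3.99 in Control. LFD-vWAT-Exos and LFD-iWAT-Exos had the lowest ratios, and Mmp2 made up 53.3% and 60.8% of the Mmp sum there, against 72.5 to 77.0% in the other libraries. With Mmp2 left out, the ratio was between 0.954 and 1.12 in all 7 libraries. The inhibitors also shifted among themselves. Timp1 contributed 29.5% of the summed Timp FPKM in LFD-iWAT-Exos and 17.6% in HFD-iWAT-Exos, against 9.40% in Control, and Timp2 contributed 70.4 to 90.5%. These sums describe RNA, and protease activity was not measured in these files.

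**Figure D2:**
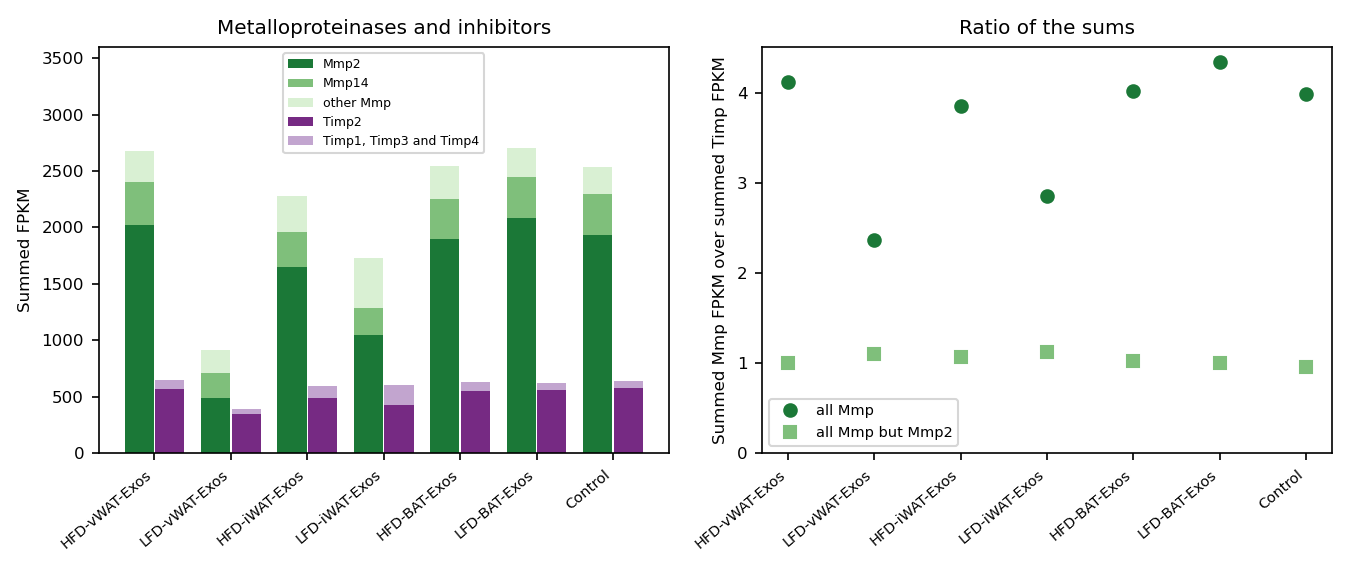
Left, summed FPKM of the metalloproteinases (green) and of the inhibitors (purple) in each library; right, the ratio of both sums with and without Mmp2. The ratio is lowest in LFD-vWAT-Exos (2.36) and LFD-iWAT-Exos (2.86), and without Mmp2 it stays between 0.954 and 1.12.

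The stromelysins, proteases with a broad range of matrix substrates that also activate other metalloproteinases, behaved unlike Mmp2. Mmp3 (stromelysin 1) had 199.9 CPM with HFD-vWAT-Exos, 224 with LFD-vWAT-Exos, 278 with HFD-iWAT-Exos, 491 with LFD-iWAT-Exos, 241 with HFD-BAT-Exos, 194 with LFD-BAT-Exos and 154 in Control. Every exosome library was above Control, and LFD-iWAT-Exos was the highest at 3.19-fold (3.07 to 3.32), which alone passed 2-fold. HFD-iWAT-Exos followed at 1.81-fold (1.73 to 1.89) and HFD-BAT-Exos at 1.57-fold (1.50 to 1.63). Mmp10 (stromelysin 2), a close relative of Mmp3, had 0.792 CPM with HFD-vWAT-Exos, 5.62 with LFD-vWAT-Exos, 1.11 with HFD-iWAT-Exos, 1.82 with LFD-iWAT-Exos, 0.912 with HFD-BAT-Exos, 1.41 with LFD-BAT-Exos and 0.586 in Control. LFD-vWAT-Exos was the highest library for Mmp10, at 9.59-fold the Control level (5.27 to 18.9), followed by LFD-iWAT-Exos at 3.11-fold (1.65 to 6.29) and LFD-BAT-Exos at 2.41-fold (1.23 to 5.01). The Control value of Mmp10 rests on 13 counts. Of the 31-base words in the transcripts, 14.6% in Mmp3 and 11.9% in Mmp10 also occur in another gene, mainly in each other. The highest libraries of the 2 genes were not the same, but in LFD-iWAT-Exos both were above Control, at 3.19-fold and 3.11-fold. The part of Mmp3 reads in the Mmp10 counts was not tested. Mmp11 (stromelysin 3), which has little activity on matrix proteins, had 179 CPM with HFD-vWAT-Exos, 148 with LFD-vWAT-Exos, 177 with HFD-iWAT-Exos, 152 with LFD-iWAT-Exos, 173 with HFD-BAT-Exos, 172 with LFD-BAT-Exos and 155 in Control. It varied by less than 1.5-fold over the 7 libraries, and its LFD-vWAT-Exos ratio to Control was 0.957 (0.904 to 1.01).

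Mmp13, the collagenase that cleaves fibrillar collagen in rodents, was the only collagenase above 1 CPM, with 41.3 to 49.7 CPM in 5 exosome libraries, 17.7 CPM in LFD-vWAT-Exos and 33.4 CPM in Control. All 5 exosome libraries other than LFD-vWAT-Exos had an interval above Control, at 1.24-fold to 1.49-fold. Mmp12, the macrophage elastase, was scarce: 1.86 CPM in HFD-vWAT-Exos and 2.03 CPM in LFD-vWAT-Exos, 0 in HFD-iWAT-Exos (the floor of 3 counts is 0.166 CPM there), 0.689 in LFD-iWAT-Exos, 0.182 in HFD-BAT-Exos, 0.177 in LFD-BAT-Exos and 0.316 in Control. Both vWAT libraries were thus high, with 40 and 26 counts against 7 in Control. The list of 9 macrophage markers summed to 40.1 CPM in HFD-vWAT-Exos, 118 CPM in LFD-vWAT-Exos and 33.8 CPM in Control. Its markers Adgre1, Fcgr1, Itgam and Ptprc were below 1 CPM in every library. Of the 5 compared between LFD-vWAT-Exos and Control, 4 were higher and apart by the rule given below, where 13.2% of all genes were. They were Csf1r (11.7 against 0.541 CPM), Mrc1 (9.99 against 0.496), Cd68 (13.9 against 3.47) and Cd14 (77.7 against 24.0). Lyz2 was at 4.53 against 4.91 CPM. Mrc1 was also higher and apart in HFD-vWAT-Exos (1.16 CPM), LFD-iWAT-Exos (2.43 CPM) and HFD-BAT-Exos (1.69 CPM). The part of such cells in the Mmp12 signal was not tested.

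Mmp3, Mmp10, Mmp12 and Mmp13 lie in one cluster on chromosome 9, in the order Mmp13, Mmp12, Mmp1b, Mmp3, Mmp1a, Mmp10, Mmp8, Mmp27, Mmp20 and Mmp7. Their promoters are shown because these 4 are the cluster genes above 1 CPM, and because each holds the letters of the AP-1 motif TGANTCA (palindromic, so both strands are covered) shortly before its start. The 120 bases before the start are given from RefSeq on GRCm38.p6, all on the plus strand, with the motif in capitals: chr9:7445702-7445821 for Mmp3, chr9:7502222-7502341 for Mmp10, chr9:7347254-7347373 for Mmp12 (from the second of its RefSeq starts, since the window of the first does not hold the motif) and chr9:7272394-7272513 for Mmp13.
Mmp3: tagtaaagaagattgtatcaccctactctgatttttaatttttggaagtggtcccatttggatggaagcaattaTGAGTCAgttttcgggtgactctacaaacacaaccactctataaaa
Mmp10: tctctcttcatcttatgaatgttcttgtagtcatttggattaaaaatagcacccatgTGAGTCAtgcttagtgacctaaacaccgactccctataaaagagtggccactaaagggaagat
Mmp12: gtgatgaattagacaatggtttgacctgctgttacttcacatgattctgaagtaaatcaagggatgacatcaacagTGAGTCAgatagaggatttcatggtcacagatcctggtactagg
Mmp13: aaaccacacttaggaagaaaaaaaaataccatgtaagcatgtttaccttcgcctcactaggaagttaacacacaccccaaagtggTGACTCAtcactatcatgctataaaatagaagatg
The motif began 46 bases before the start in Mmp3, 63 in Mmp10, 44 in Mmp12 and 35 in Mmp13. Over all 32851 RefSeq windows from 250 bases before to 50 bases after a start, 7.81% held it. Counted by gene, 8.97% of the 27025 genes held it in at least 1 window. Of the 24 members above 1 CPM with a window, 5 held it, these 4 and Adam19, and of the 25 other members with a window 8 did, among them Mmp1a, Mmp1b, Mmp7 and Mmp20 of the same cluster. A match describes letters only. The highest library was LFD-iWAT-Exos for Mmp3, LFD-vWAT-Exos for Mmp10 and Mmp12, and HFD-iWAT-Exos for Mmp13.

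**Figure D3:**
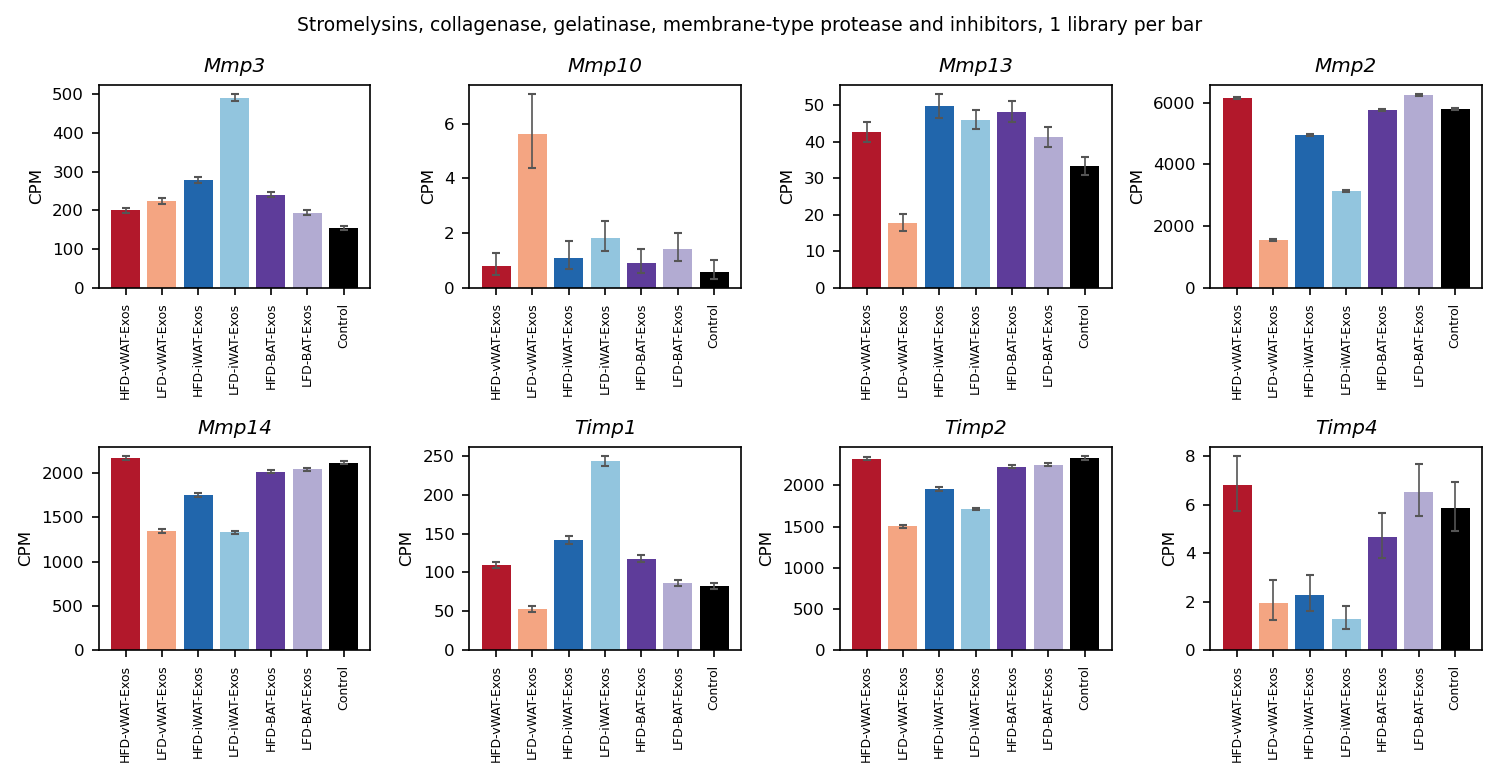
Level of 8 members in the 7 libraries, in CPM with 1 bar per library and exact 95% counting intervals; the scale of each panel starts at 0 and differs between genes. Mmp3 and Timp1 are highest in LFD-iWAT-Exos (491 and 243 CPM), Mmp10 in LFD-vWAT-Exos (5.62 CPM), and Mmp2 is lowest in LFD-vWAT-Exos (1554 CPM).

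Among the ADAMTS genes, those that cleave the large proteoglycans led. Adamts1, which cleaves versican and aggrecan, had 1707 CPM with HFD-vWAT-Exos, 585 with LFD-vWAT-Exos, 1591 with HFD-iWAT-Exos, 1484 with LFD-iWAT-Exos, 1643 with HFD-BAT-Exos, 1543 with LFD-BAT-Exos and 1765 in Control. Adamts5, the main aggrecanase of mouse cartilage, had 467 CPM with HFD-vWAT-Exos, 130.2 with LFD-vWAT-Exos, 506 with HFD-iWAT-Exos, 501 with LFD-iWAT-Exos, 430.0 with HFD-BAT-Exos, 409 with LFD-BAT-Exos and 425 in Control. For both, 6 libraries lay close together and LFD-vWAT-Exos was low, 3.02-fold (2.94 to 3.09) and 3.27-fold (3.10 to 3.44) below Control. Adamts4, another aggrecanase, was highest in LFD-iWAT-Exos at 112 CPM, against 66.5 CPM in Control, a ratio of 1.69 (1.59 to 1.80), and lowest in LFD-vWAT-Exos at 30.0 CPM. Adamts9 was lower in both iWAT libraries than in Control, at ratios of 0.637 (0.584 to 0.694) in HFD-iWAT-Exos and 0.587 (0.541 to 0.636) in LFD-iWAT-Exos, and was as low in LFD-vWAT-Exos at 0.591 (0.534 to 0.653). Adamts15 ranged between 3.59 CPM in LFD-vWAT-Exos and 10.4 CPM in HFD-vWAT-Exos.

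The procollagen N-propeptidases, which trim fibrillar procollagens, went apart from each other in LFD-vWAT-Exos. Adamts2 stood there at 60.2 CPM against 198 CPM in Control, 3.29-fold lower (3.04 to 3.55), whereas Adamts14 stood at 70.9 CPM against 33.6 CPM, 2.11-fold higher (1.91 to 2.32). Of the 2 proteases known to cleave cartilage oligomeric matrix protein, Adamts12 had 44.5 CPM with HFD-vWAT-Exos, 5.70 with LFD-vWAT-Exos, 39.9 with HFD-iWAT-Exos, 33.9 with LFD-iWAT-Exos, 38.9 with HFD-BAT-Exos, 42.1 with LFD-BAT-Exos and 48.0 in Control. LFD-vWAT-Exos was the low library, 8.43-fold below Control (6.65 to 10.8). The other, Adamts7, was at 99.0 CPM in LFD-vWAT-Exos and 58.2 CPM in Control, a ratio of 1.70 (1.57 to 1.84). Adamts6 and Adamts10, both linked to fibrillin microfibrils, reached 15.0 to 23.0 CPM and 13.1 to 50.7 CPM. Adamts16 was scarce, at 0.866 to 2.23 CPM in 6 libraries and a single count in LFD-vWAT-Exos.

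Of the 33 Adam genes, 20 encode the zinc-binding signature of an active protease in their longest reading frame and 13 do not. The signature searched was HEXXHXXGXXH, with N or D also accepted in place of the G. Of the 12 above 1 CPM, 9 have it, and Adam11, Adam23 and Adam32 lack it. Adam9, a widely expressed membrane protease, had 460.2 CPM with HFD-vWAT-Exos, 543 with LFD-vWAT-Exos, 525 with HFD-iWAT-Exos, 510.2 with LFD-iWAT-Exos, 539 with HFD-BAT-Exos, 340.1 with LFD-BAT-Exos and 454 in Control. LFD-BAT-Exos was the lowest, and HFD-BAT-Exos exceeded it by a ratio of 1.59 (1.54 to 1.63). Adam10, the sheddase that makes the first cut of activated Notch receptors, had 195 CPM with HFD-vWAT-Exos, 147 with LFD-vWAT-Exos, 205 with HFD-iWAT-Exos, 189 with LFD-iWAT-Exos, 192 with HFD-BAT-Exos, 200.3 with LFD-BAT-Exos and 219.9 in Control. Adam15, which also binds integrins, had 314 CPM with HFD-vWAT-Exos, 196 with LFD-vWAT-Exos, 294 with HFD-iWAT-Exos, 296 with LFD-iWAT-Exos, 309.6 with HFD-BAT-Exos, 301 with LFD-BAT-Exos and 312 in Control. Both varied little outside LFD-vWAT-Exos. For Adam15, 20.6% of the exon bases overlap another gene, so its counts are less certain.

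Adam17, the sheddase of tumour necrosis factor and of ligands of the EGF receptor, stayed at 178 to 208 CPM in 6 libraries. It was highest in LFD-vWAT-Exos at 241 CPM, against 189.9 CPM in Control, a ratio of 1.27 (1.21 to 1.33). Adam8, known mainly from immune cells, was highest in LFD-iWAT-Exos at 126 CPM, against 89.4 CPM in Control, a ratio of 1.41 (1.33 to 1.49). Adam23, which lacks the zinc-binding signature and is known as a neuronal adhesion receptor, had 331 CPM with HFD-vWAT-Exos, 43.5 with LFD-vWAT-Exos, 319.5 with HFD-iWAT-Exos, 215 with LFD-iWAT-Exos, 300.1 with HFD-BAT-Exos, 353 with LFD-BAT-Exos and 278 in Control. It was 6.40-fold lower in LFD-vWAT-Exos than in Control (5.86 to 6.99), and LFD-iWAT-Exos was the next lowest library. The rest, Adam19, Adam12, Adam33, Adam1a, Adam32 and Adam11, stayed at or below 30.4 CPM. The counts of Adam1a are uncertain because 63.7% of its exon bases overlap other genes.

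Each exosome library was next set against the Control library, which all 6 comparisons share. A member was called apart when the ratio was at least 2-fold (on the log2 scale with a prior count of 2) and its counting interval excluded equal levels. In LFD-vWAT-Exos, 20 of the 38 members compared were apart from Control, 4 higher and 16 lower (52.6%). Over all 12589 genes compared, 30.5% were apart by the same rule, 13.2% higher and 17.3% lower. The members lower in LFD-vWAT-Exos were Mmp2, Mmp9, Mmp23, Mmp28, Adamts1, Adamts2, Adamts4, Adamts5, Adamts10, Adamts12, Adamts15, Adamts16, Adam23, Adam33, Timp3 and Timp4, and those higher were Mmp10, Mmp12, Adam32 and Adamts14. Of the higher ones, Adam32 rests on 22 counts against 15 in Control, and Mmp12 on 26 against 7. The median log2 ratio was −0.81 over the members and −0.04 over all genes. The summed macrophage markers were at 118 CPM in this library, against 33.8 to 47.3 CPM in the other 6. Cd14 alone was at 77.7 CPM in LFD-vWAT-Exos and 24.0 CPM in Control, and Adgre1, Fcgr1, Itgam and Ptprc were below 1 CPM in every library. The part of the library's distinct composition in these ratios was not tested.

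**Figure D4:**
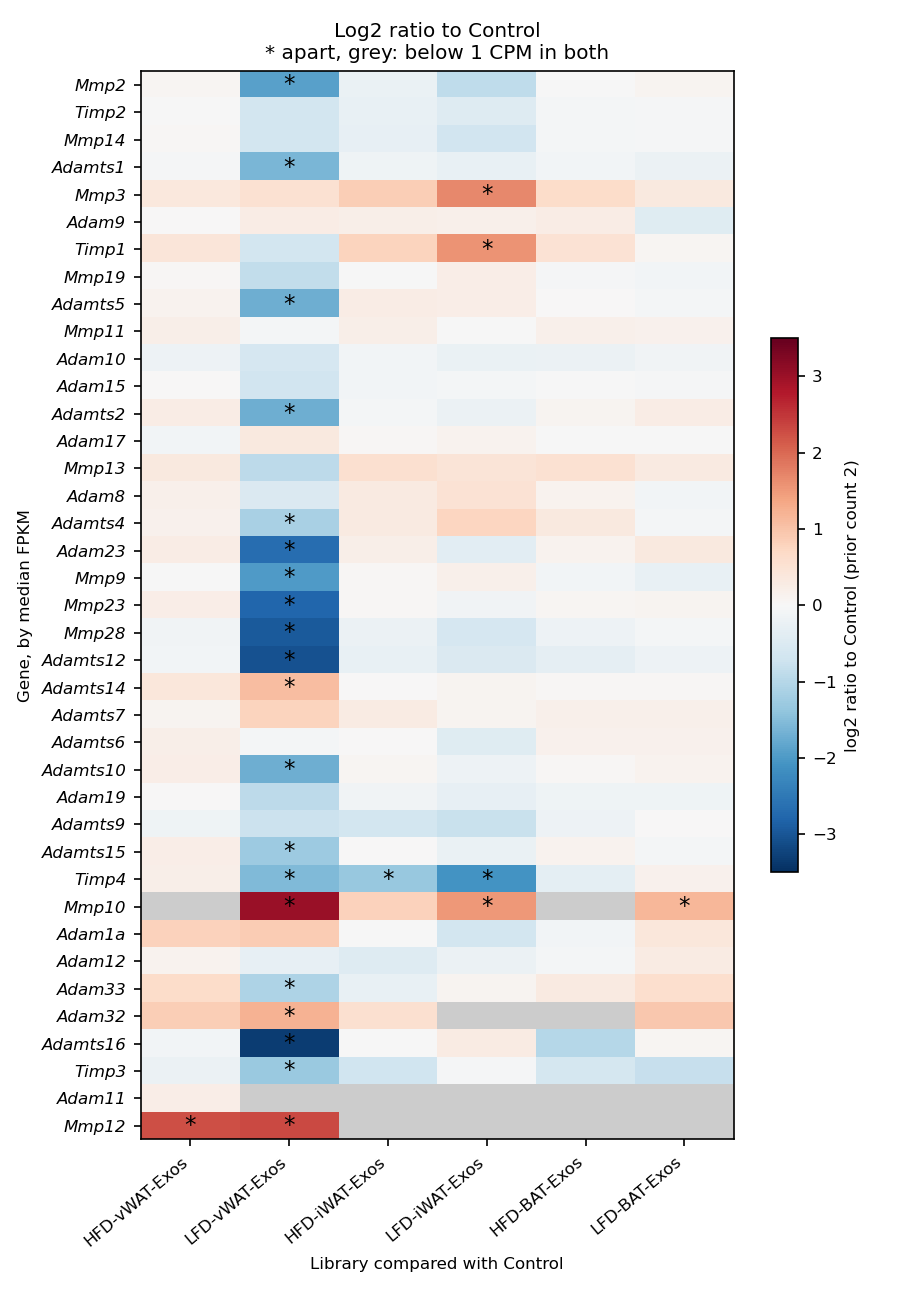
Log2 ratio of each exosome library to Control for the 39 members, red for higher and blue for lower; asterisks mark members called apart and grey marks genes below 1 CPM in both libraries. LFD-vWAT-Exos holds 20 of the asterisks, LFD-iWAT-Exos 4, and HFD-BAT-Exos none.

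The other 5 exosome libraries had fewer members apart from Control than LFD-vWAT-Exos had. In LFD-iWAT-Exos, 4 of 36 members were apart (11.1%), against 5.12% of all genes. Mmp3, Timp1 and Mmp10 were higher (3.17% of all genes were higher) and Timp4 was lower (1.95% of all genes were lower). The median log2 ratio of the members was −0.10. Single members were apart elsewhere: Timp4 lower in HFD-iWAT-Exos (1 of 37, against 2.9% of all genes), Mmp12 higher in HFD-vWAT-Exos (1 of 38, against 1.99%) and Mmp10 higher in LFD-BAT-Exos (1 of 37, against 1.76%). In HFD-BAT-Exos none of 35 members was apart, against 2.27% of all genes. In those 4 libraries the share of members apart was close to the share of all genes.

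Obese and lean exosomes were then compared within each depot. Between HFD-vWAT-Exos and LFD-vWAT-Exos, 19 of 39 members were apart, 18 higher and 1 lower (48.7%), against 29.6% of all genes, 17.6% higher and 12% lower. The median log2 ratio was 0.93 over the members and 0.04 over all genes. The largest ratios among members with at least 50 counts were those of Mmp23, 8.24-fold (6.41 to 10.7), Adamts12, 7.81-fold (6.15 to 10.1), Adam23, 7.61-fold (6.98 to 8.31) and Mmp28, 7.15-fold (5.72 to 9.05). Mmp2 was 3.95-fold higher in HFD-vWAT-Exos (3.90 to 4.01), and Mmp10 was 7.10-fold lower (4.14 to 12.8). This comparison shares the LFD-vWAT-Exos library with that of LFD-vWAT-Exos and Control, and HFD-vWAT-Exos was apart from Control in a single member.

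In the other depots the diets were close. Between HFD-iWAT-Exos and LFD-iWAT-Exos, none of 37 members was apart, against 2.54% of all genes. Among members at 10 CPM or more, Mmp3 and Timp1 came nearest to 2-fold, at ratios of 0.566 (0.548 to 0.585) and 0.584 (0.557 to 0.612), both lower in HFD-iWAT-Exos. Mmp2 was higher in HFD-iWAT-Exos, as given above, and Adam23 had a ratio of 1.48 (1.43 to 1.54). Between HFD-BAT-Exos and LFD-BAT-Exos, 1 of 36 members was apart, against 1.97% of all genes. This was Adamts16 with 19 and 43 counts, 2.20-fold lower in HFD-BAT-Exos (1.25 to 3.99).

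**Figure D5:**
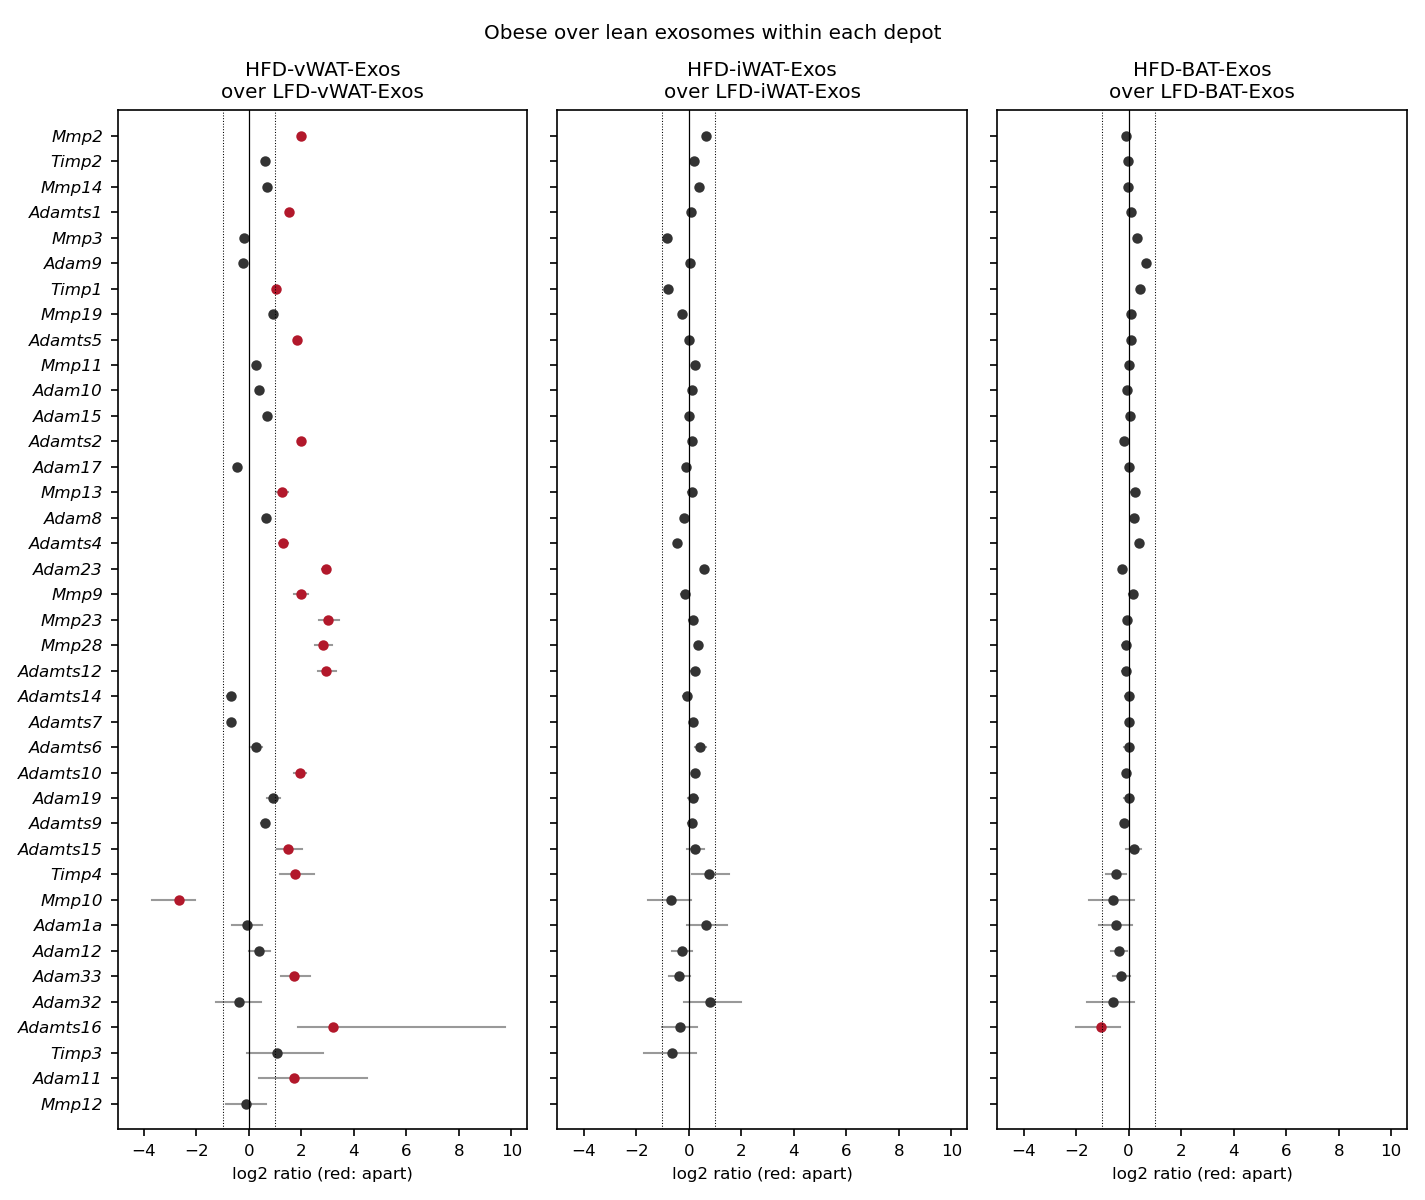
Log2 ratio of obese over lean exosome libraries for the 39 members in vWAT, iWAT and BAT, with exact 95% counting intervals; dotted lines mark a 2-fold difference and red points mark members called apart. In vWAT 18 members are apart above 0 and Mmp10 below, in iWAT none is apart, and in BAT only Adamts16.

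Fits over several libraries gave no call. With diet as the factor and depot as a block over the 6 AT-Exos libraries, edgeR's quasi-likelihood F test called 0 of 43 members tested at a Benjamini-Hochberg adjusted p under 0.05, against 0% of the 13441 genes tested. At an unadjusted p under 0.05 it had 73 genes and 0 members. DESeq2 (9 genes called) and limma-voom (0 genes) also called 0 members, and DESeq2 had 3 members (Adam23, Mmp2 and Mmp10) at an unadjusted p under 0.05. In the edgeR fit the log2 fold change of HFD over LFD was 0.82 ± 0.47 (SE) for Mmp2 and −1.39 ± 0.60 for Mmp10, with adjusted p of 0.888 for both. With all AT-Exos libraries against Control, edgeR called 0 of 46 members, against 0.00709% of 14102 genes (1 gene, not a member), and had 120 genes and 0 members at an unadjusted p under 0.05. DESeq2 (3 genes called) and limma-voom (1 gene) again called 0 members, and DESeq2 had 1 (Mmp17) at an unadjusted p under 0.05. The log2 fold change of AT-Exos over Control was 0.82 ± 0.52 (SE) for Mmp3, 0.61 ± 0.69 for Timp1 and −0.33 ± 0.63 for Mmp2 (edgeR adjusted p 1.00 for each). These fits treat libraries of different exosomes as repeats of one group, with 2 and 5 residual degrees of freedom.

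How much the members varied outside LFD-vWAT-Exos could be read from the other 6 libraries. Of the 29 members at 10 CPM or more in at least 1 of them, 19 stayed within 1.5-fold between the lowest and highest library (65.5%, against 82.7% of all genes) and 27 within 2-fold. Mmp3 and Timp1 were beyond 2-fold (6.90% of the members, against 5.68% of all genes). The median ratio of highest to lowest was 1.38 for the members and 1.25 for all genes. LFD-vWAT-Exos was the lowest library for 25 of the 39 members (64.1%, against 41.9% of all genes) and the highest for 8 (20.5%, against 38%).

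Other genes of pericellular proteolysis were read from a list of 43. In LFD-vWAT-Exos, 18 of 32 compared were apart from Control, 7 higher and 11 lower, where 13.2% of all genes were higher and 17.3% lower. The plasminogen activator Plau was higher (68.3 against 26.6 CPM in Control) and Plat lower (109.7 against 253 CPM). Reck, a membrane-anchored inhibitor of several metalloproteinases, was 3.89-fold lower in LFD-vWAT-Exos than in Control (3.56 to 4.26). Outside LFD-vWAT-Exos at most 3 genes of the list were apart in a comparison, among them the protease inhibitor A2m and the serpin Serpinb2. In LFD-iWAT-Exos, Serpinb2 was at 3.81 CPM against 0.857 CPM in Control, 4.45-fold higher (2.70 to 7.71).

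Genes for proteins that the members cleave were read in the same way. Of the hyalectans, the proteoglycans cut by ADAMTS proteases, only versican (Vcan) was above 1 CPM, and it was 2.18-fold lower in LFD-vWAT-Exos than in Control (2.13 to 2.23). Of the 4 shed ligands of the EGF receptor compared in LFD-vWAT-Exos, Hbegf was apart and higher than Control (118 against 14.4 CPM). Egf was apart and lower there (0.702 against 4.60 CPM). Of all genes, 13.2% were higher and 17.3% lower in that comparison. Hbegf was also apart and higher in LFD-iWAT-Exos (47.4 CPM), HFD-BAT-Exos (42.0 CPM) and HFD-iWAT-Exos (30.5 CPM). Of 10 other shed proteins, 7 were lower in LFD-vWAT-Exos than in Control (Vcam1, Jag1, Notch1, Cd44, Sdc1, Dlk1 and Cx3cl1), where 17.3% of all genes were lower. Sdc4 was higher, and none was apart from Control in the remaining libraries.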

How the data were processed

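Sequenced RNA of 3T3-L1 cells (7 libraries, 1 for each group) was used, with groups taken from the sample labels. According to the methods and the submitters' notes, the authors cleaned reads by fastp and aligned them by HISAT2, and StringTie gave gene levels. Versions are not given in the sources used here. The methods name a human reference, and the mouse build and annotation are not given in the sources used here. The count table deposited by the authors holds raw counts per gene. The FPKM table deposited by the authors holds the same genes per length and library total (over 11290 genes the implied length varied by at most 0.00138%). Members, lists and tests were chosen with earlier results of these data known.

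Counts were scaled with TMM factors from 12090 genes (edgeR 4.0.16, R 4.3.3), giving 0.950 for LFD-vWAT-Exos and 1.00 to 1.01 elsewhere. Between single libraries no test was possible. Ratios of the scaled counts carry an exact 95% interval after Clopper and Pearson (scipy 1.17.1), and a gene at 1 CPM or more in either library was called apart at 2-fold with an interval excluding equality. Fits used edgeR's quasi-likelihood F test over all genes after filterByExpr with Benjamini-Hochberg adjustment. The SE printed with a log2 fold change was derived as its absolute value divided by the square root of F, and is approximate. DESeq2 1.42.0, limma-voom (limma 3.58.1), other scalings, filters and left-out libraries were alternatives. The fits, but not the ratios of single libraries, were tried on simulated data, with less spread between libraries than was estimated here.

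Values in every library were given for the 4 Timp genes, the 12 members of highest median FPKM, members with at least 50 counts apart without LFD-vWAT-Exos, the 6 largest log2 ratios between LFD-vWAT-Exos and Control at 50 counts, and any member called by a fit (none was). Gene IDs (34267 found), overlaps and reading frames came from GENCODE M21, and promoters from RefSeq on GRCm38.p6. A planned search of RefSeq proteins for HEXXHXXGXXH was replaced by the longest reading frames, with N or D also accepted in place of the G. Genes sharing 20% or more of exon bases or 31-base words with others were called uncertain.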

Additional observations from a re-analysis of the deposited data

Results flagged for a closer look

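For 2 members the obese over lean ratio pointed in opposite directions in different depots by at least 1.5-fold each way, with both counting intervals excluding equal levels and the member apart in at least 1 depot, limits set after the values were seen. Timp3 and Adam32 also differed in sign by that fold, on 31 counts or fewer and with intervals that included equal levels. The log2 ratio of Timp1 was 1.05 between HFD-vWAT-Exos and LFD-vWAT-Exos and −0.78 between HFD-iWAT-Exos and LFD-iWAT-Exos. The log2 ratio of Adamts16 was 3.20 between HFD-vWAT-Exos and LFD-vWAT-Exos, with a single count in LFD-vWAT-Exos, and −1.06 between HFD-BAT-Exos and LFD-BAT-Exos. With 1 library per group the difference between depots was not tested.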

How the results depend on the processing

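With total counts only or DESeq2 size factors, the counts of members apart stayed within 1.5 times in all 9 comparisons. Of 531 recomputed log2 ratios (other scalings, or a prior count of 0.5), 31 moved outside their counting interval and 0 changed sign. With a minimum of 10 CPM the members apart from Control numbered 12 in LFD-vWAT-Exos (1 higher and 11 lower) and 2 in LFD-iWAT-Exos. They numbered 0 in HFD-vWAT-Exos, HFD-iWAT-Exos and LFD-BAT-Exos against Control, and 0 between HFD-BAT-Exos and LFD-BAT-Exos. On the log2(FPKM + 1) scale they numbered the same. With no minimum they numbered 5 in HFD-vWAT-Exos, 4 in HFD-iWAT-Exos, 7 in LFD-iWAT-Exos, 2 in HFD-BAT-Exos and 2 in LFD-BAT-Exos against Control, 1 between HFD-iWAT-Exos and LFD-iWAT-Exos, and 3 between HFD-BAT-Exos and LFD-BAT-Exos. Total counts moved the median log2 ratio of all genes to 0.12 between HFD-vWAT-Exos and LFD-vWAT-Exos and to −0.13 between LFD-vWAT-Exos and Control. Both fits called 0 members under every alternative. Without LFD-vWAT-Exos the AT-Exos fit of edgeR called 11 genes, against 1 with it, and had 2 of 46 members (Mmp13 and Mmp8) at an unadjusted p under 0.05, against 687 of 13920 genes; it called 2 genes without HFD-vWAT-Exos, 1 without LFD-BAT-Exos and 0 without LFD-iWAT-Exos, HFD-iWAT-Exos or HFD-BAT-Exos. Without the vWAT pair the diet fit called 12 genes against 0, with 0 of 40 members at that level, against 247 of 13225 genes, and without the BAT pair it called 1 gene, with 8 of 41 members at that level, against 686 of 13103 genes. No paired analysis was possible because each group has 1 library and no replicate numbers; depot was the only block. The depth limits members below 1 CPM and the ratios of scarce members such as Mmp10, Mmp12, Timp3, Timp4 and Adamts16, whose intervals are wide.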
